A study of Mus musculus with 6 samples.

Results

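The aggrecan gene, Acan, and the sequence upstream of it were examined in lists of open chromatin from ATDC5 cells, a mouse line of cartilage precursors. Members were all peaks of the 6 deposited lists with a summit on chromosome 7 between 78550000 and 78820000, a stretch of 270 kb, and they numbered 705 of 1453803 peaks on the assembled chromosomes. The assay, ATAC-seq, marks open DNA by the sites where the transposase Tn5 can insert adapters. Cells were spotted as dense droplets, and differentiation medium supplied beta-glycerophosphate together with an ascorbate phosphate. The groups were Day0, which the labels call control, and Day3 and Day10, which they call differentiation, each with 2 libraries described as independent biological replicates. All groups are the same unmodified line, so the data describe 1 cell line in culture and no animal cartilage.

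Aggrecan is the large proteoglycan that binds water in the cartilage matrix. Its core protein attaches to hyaluronan, and link proteins of the Hapln family, among them the product of Hapln3, hold that bond. The gene is switched on as chondrocytes form, under SOX9 with its partners SOX5 and SOX6, and a far-upstream enhancer bound by these factors has been described. In the RefSeq gene order of build GRCm38.p6 the protein-coding neighbours are Aen and Isg20 before Acan and Hapln3, Mfge8 and Abhd2 after it. Positions in the lists are on another build, read as GRCm39, on which Acan was taken to span 78703231 to 78764847 on the plus strand. Regions were therefore placed by distance from that stated start, and Hapln3 was taken only as following Acan.

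The promoter bases of both genes are shown because a region at the Acan start is among those gained on Day10, and because Hapln3 is the link-protein gene that follows it. Each is the 250 bases before the RefSeq start, 5′ to 3′ on the gene's strand, on GRCm38.p6: chr7:79052976-79053225, plus strand, for Acan and chr7:79131019-79131268, minus strand, for Hapln3. Capitals mark CG dinucleotides in the Acan line and motif matches in the Hapln3 line.
Acan: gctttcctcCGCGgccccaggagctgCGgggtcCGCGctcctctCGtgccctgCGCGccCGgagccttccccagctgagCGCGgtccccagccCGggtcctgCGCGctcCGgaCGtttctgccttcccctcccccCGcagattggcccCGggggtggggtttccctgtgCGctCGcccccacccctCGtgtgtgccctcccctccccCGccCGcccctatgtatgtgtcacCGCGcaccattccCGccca
Hapln3: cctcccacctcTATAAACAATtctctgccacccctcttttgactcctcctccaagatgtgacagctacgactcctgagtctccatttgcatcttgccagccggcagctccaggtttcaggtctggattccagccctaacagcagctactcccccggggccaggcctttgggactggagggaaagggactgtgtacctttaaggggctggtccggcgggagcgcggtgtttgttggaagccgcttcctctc

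The Acan promoter was rich in CG, with 26 such dinucleotides against a median of 6.0 over 32851 RefSeq promoters, and 9.59% of those held at least as many. Hapln3 had 8. On both strands, the searched motifs were AACAAT for SOX factors, TGTGGT for RUNX factors, TGANTCA for AP-1 and TATAAA for the TATA box. None of them occurred in the Acan window. The Hapln3 window held AACAAT and TATAAA once each, overlapping, 239 to 230 bases before the start. Of all promoters of that length, 9.42% held AACAAT, 14.0% TGTGGT, 6.75% TGANTCA and 12.4% TATAAA. A match is a run of letters and was not read as a bound site.

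The lists held 164642 and 164960 peaks on Day0, 177751 and 177111 on Day3, and 381376 and 390100 on Day10. Depth estimated from the peak scores, relative to Day0 replicate 1, was 1.0 in the other Day0 library, 1.13 and 1.11 on Day3 and 1.96 in both Day10 libraries. The smallest listed width was 87 to 90 bases on Day0 and Day3 and 68 and 72 on Day10. The smaller widths are found on Day10 only, and the word lysis stands in the peak names of Day3 only, so on both days the time point and a possible difference in handling cannot be told apart. Counts of listed peaks are therefore given beside counts from lists cut to the length of the shortest, 164320 peaks, or to the 50000 strongest peaks.

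The locus held many more peaks on Day10 than before. It listed 50 and 44 summits on Day0, 53 and 49 on Day3, and 254 and 255 on Day10. With all lists cut to 164320 peaks the numbers were 50 and 44, then 40 and 36, then 97 and 97. The Day10 libraries stood above the other 4 on both scales, and Day3 overlapped Day0 on the first scale and lay below it on the second. At the shortest length the weakest retained summit had a read pileup of 5 on Day0, 7 on Day3, and 12 and 13 on Day10, so the cut fell at a higher pileup in the deeper Day10 libraries.

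**Figure D1:**
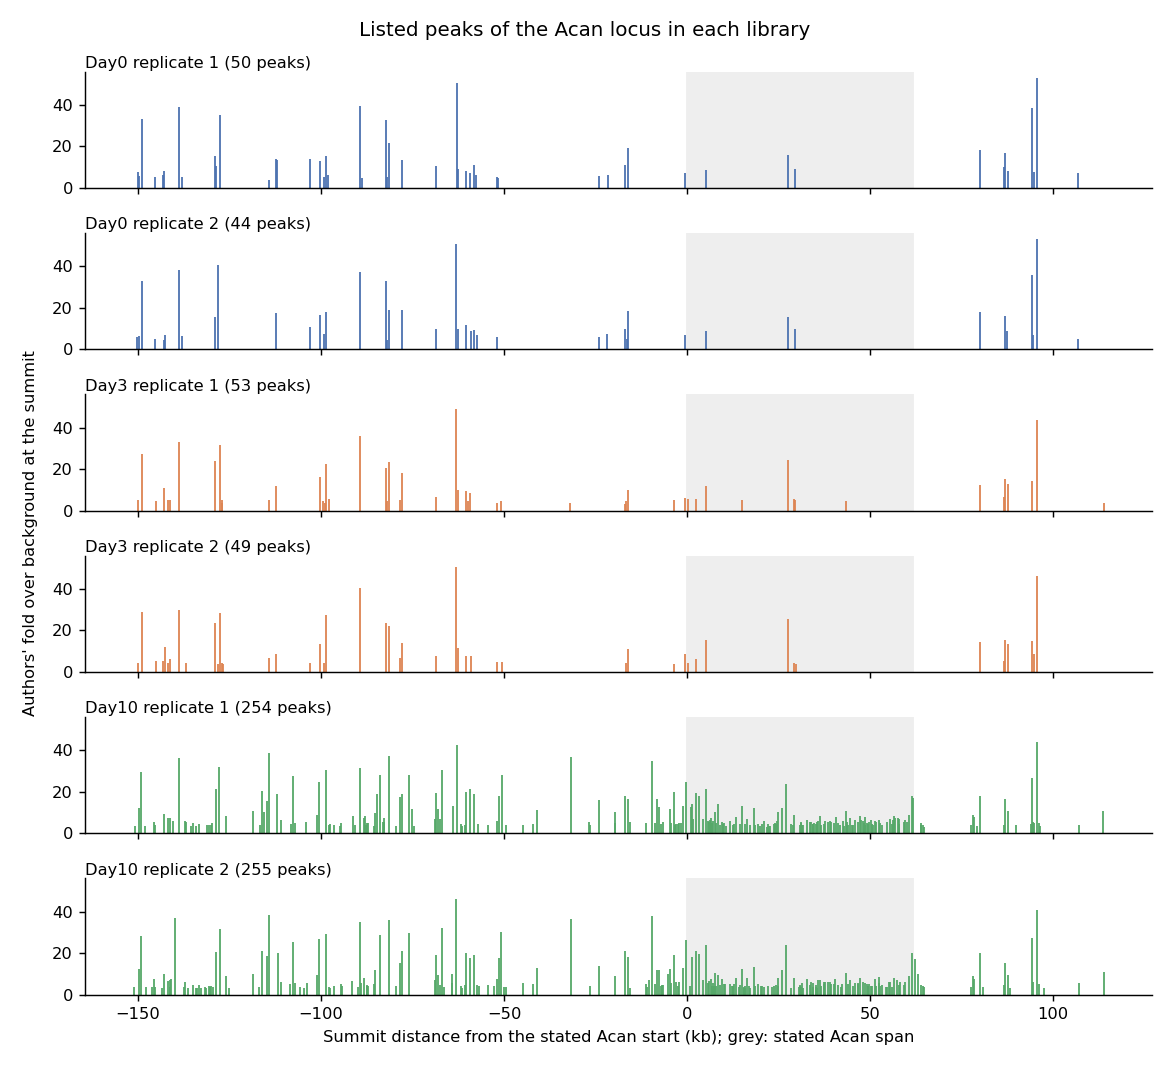
Each line is a listed peak, placed by the distance of its summit from the stated Acan start (kb) and as tall as the authors' fold over background, with 1 panel per library and the Acan span in grey. The grey span holds 3 peaks in each Day0 library and 117 and 112 in the Day10 libraries, most of them low.

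In counts of listed peaks, the difference between days was largest inside the gene in proportion and, per 10 kb, in number. Across the 61.6 kb of Acan the lists held 3 summits in each Day0 library, 8 and 6 on Day3, and 117 and 112 on Day10. In lists of equal length these numbers were 3 and 3, then 7 and 3, then 31 and 31. All listed peaks together covered 1.66% and 1.8% of the gene on Day0, 2.52% and 2.02% on Day3, and 49.6% and 54.3% on Day10. With equal list lengths the Day10 share was 26.2% and 30.6%.

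Most of the peaks inside Acan on Day10 were weak and evenly spread. Their median fold was 5.28 and 5.11 and their median pileup 10 reads, where the smallest pileup in any list is 5. Over the whole Day10 lists the median fold was 5.76 and 5.58, so low folds were not particular to Acan. The longest stretch of the gene without a summit was 1.6 kb in both Day10 libraries. At Day0 it was 32.2 and 32.3 kb, running from 29.4 kb to the gene's end at 61.6 kb. In steps of 10 kb, the Day10 libraries listed 16 and 16 summits in the last step before the start, 13 to 23 in each full step inside the gene, and 4 and 3 in the step from 70 to 80 kb. The dense stretch thus began just before the start and ended soon after the gene's end.

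For comparison, the genome was divided into bins of the length of Acan. Only bins that held a summit of the list in question were counted, so their number differs between libraries. With empty bins included the shares would be lower. In the Day10 libraries 1 bin of 30397 and 1 of 30522 held as many listed summits as Acan, against 19531 of 28761 and 19560 of 28936 on Day0. With equal list lengths 0.279% and 0.249% of bins did so on Day10. These shares are descriptions, since the gene was chosen and the bins lie on a fixed grid. Of Day10 summits in the locus ranked worse than 100000, 74.0% and 72.4% had a summit of the other Day10 library within 100 bases, close to the 76.1% and 73.4% found genome-wide. The part of sequencing depth in the number of weak peaks was not tested beyond the equal list lengths.

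Upstream and downstream of the gene these counts differed less in proportion. In the 153.2 kb upstream, equal lists held 39 and 34 summits on Day0, 27 and 26 on Day3, and 57 and 56 on Day10. In the 55.2 kb beyond the gene, where Hapln3 and Mfge8 follow, they held 8 and 7, then 6 and 7, then 9 and 10. For strong peaks the larger change in number was upstream. Among the 50000 strongest, upstream summits numbered 8 and 11 on Day0, 11 and 9 on Day3, and 29 and 28 on Day10. Within Acan they numbered 0 and 0, then 1 and 2, then 5 and 6, and beyond it 2 or 3 in every library. The differences between the 3 stretches were not tested.

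**Figure D2:**
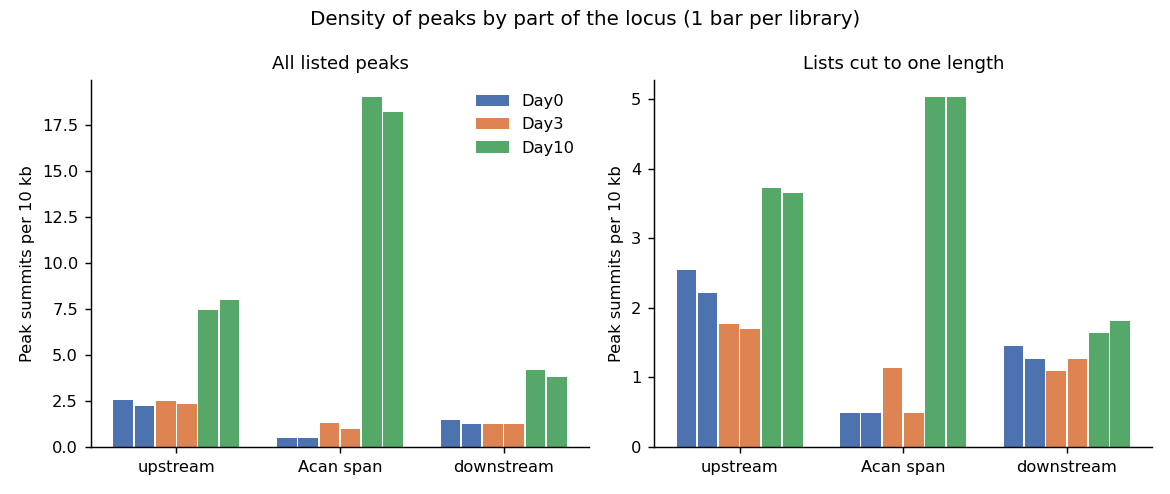
Bars give peak summits per 10 kb upstream of Acan, within its span and downstream, 1 bar per library, for all listed peaks (left) and for lists cut to 164320 peaks (right). In both panels the Acan span has the highest bars on Day10 and the lowest on Day0.

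Strong peaks were also most numerous on Day10. Among the 50000 strongest peaks of each library, 11 and 14 lay in the locus on Day0, 14 and 14 on Day3, and 37 and 37 on Day10. The means were 12.5 ± 2.12 (SD, n = 2) on Day0, 14.0 ± 0.0 on Day3 and 37.0 ± 0.0 on Day10. An exact permutation test over all 15 pairings of the 6 libraries gave p = 0.2, since 1 Day0 library and both Day3 libraries had equal counts. These peaks covered 7402 and 9571 bases on Day0, 11853 and 10534 on Day3, and 35343 and 37634 on Day10. The exact permutation p for covered bases was 0.067, the smallest that 15 pairings allow. Day10 lay far from the other libraries on both measures. Day3 lay above Day0 in covered bases without overlap, while in number of summits the days touched at 14.

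To follow single elements, the strongest peaks of all libraries were gathered into 78665 windows reaching 250 bases to either side of a summit, called regions here, of which 45 lay in the locus. They held 183 of the 705 summits. The other 522 were weaker peaks or summits on the flank of a region, and 64 of them ranked within the 100000 strongest of their library. Of the 45 regions, 34 lay upstream, 7 in Acan and 4 downstream. A region was held on a day when it had a summit among the 50000 strongest in both libraries, and out when it ranked worse than 100000, or was not listed, in both. Gained regions went from out to held and lost regions the reverse.

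Of the regions of the locus, a smaller share was held on Day0 and Day3 than on Day10. It held 10 of its 45 regions on Day0 and 11 on Day3, or 22.2% and 24.4%, where all regions genome-wide were held at 58.0% and 57.7%. On Day10 it held 31, or 68.9%, against 56.7% genome-wide. Since the 45 regions include those that only Day10 summits contributed, the earlier shares are low in part by construction. In number of strong summits, the locus was above the median of 6.0 per bin of 270 kb in every library, over bins that held such a summit. On all 3 days, 5 of the 45 regions were held by their summits and 9 by any overlapping peak, beside 32.7% and 39.7% genome-wide.

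Between Day0 and Day3 no region of the locus was gained and none was lost. Genome-wide the summit rule called 1.17% gained and 1.73% lost, and 0.539% and 0.516% when an overlapping peak also had to meet the rule. At those shares a set of 45 regions would hold fewer than 1, so the absence of calls on Day3 is no departure from the background. Kept regions, held on both days, numbered 7 of 45, where 45.6% were kept genome-wide.

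Between Day0 and Day10, 15 of the 45 regions were gained, and all 15 passed the summit rule and the overlap rule. That is 33.3% of the locus, beside 12.0% of all regions by the summit rule and 10.8% by both. Gained regions made up 11 of the 34 upstream, 4 of the 7 within Acan and 0 of the 4 beyond it. One region was lost by the summit rule, where the genome-wide share was 10.0%, and none by both rules, where it was 7.98%. When the genome was divided into bins of 270 kb, 3 of the 7083 bins with a region held 15 or more gained regions, and the median was 0.

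**Figure D3:**
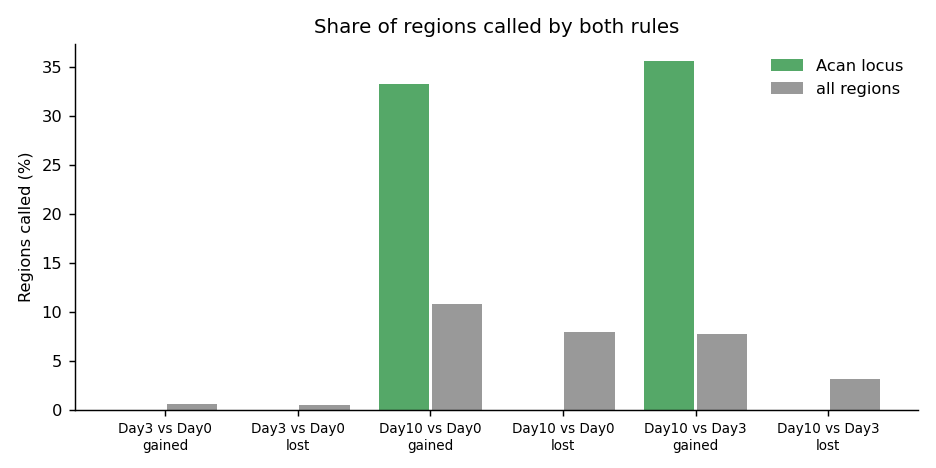
Bars give the percentage of regions called gained or lost by both rules in each comparison, for the 45 regions of the locus (green) and for all 78665 regions (grey). The locus has no called region on Day3 and 33.3% gained on Day10 against Day0.

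The stretches on either side did not show the same balance. In the 270 kb before the locus, 0 of 19 regions were gained and 8 were lost on Day10 against Day0 by both rules. In the 270 kb after it, 5 of 29 were gained and 1 was lost. Just inside and just outside the lower end, the nearest regions ranked 16802 and 20242, and 4561 and 5732, on Day10, and both were strong on every day. At the upper end the nearest inner region ranked 855 and 3132 and the nearest outer one 102605 and 87264. The ends of the stretch were fixed by position and mark no boundary in the data.

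Against Day3, Day10 gained 18 regions by the summit rule and 16 by both, where the genome-wide shares were 9.1% and 7.74%. It lost 3 by the summit rule, with 4.59% genome-wide, and 0 by both, with 3.16%. Kept regions numbered 6 of 45, with 37.9% genome-wide. Both comparisons use the same Day10 libraries. Of the 15 regions gained against Day0, 14 were out in both Day3 libraries by any overlapping peak and 0 were held there. Genome-wide 66.3% of such regions were out on Day3 and 3.46% were held.

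Many gained regions had no earlier trace in the lists. Of the 15, 13 had no overlapping peak in either Day0 library and 9 had none in any Day0 or Day3 library, or 86.7% and 60.0%, beside 70.0% and 37.6% for gained regions genome-wide. Their Day10 ranks ran from 4105 to 48002 in replicate 1, with a median of 20443, and from 5247 to 45402 in replicate 2, with a median of 24112. The gained regions of the whole genome had median ranks of 32035 and 31836. Absence from a list means a pileup below what that list reports, and its smallest entry is 5 reads in each library.

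**Figure D4:**
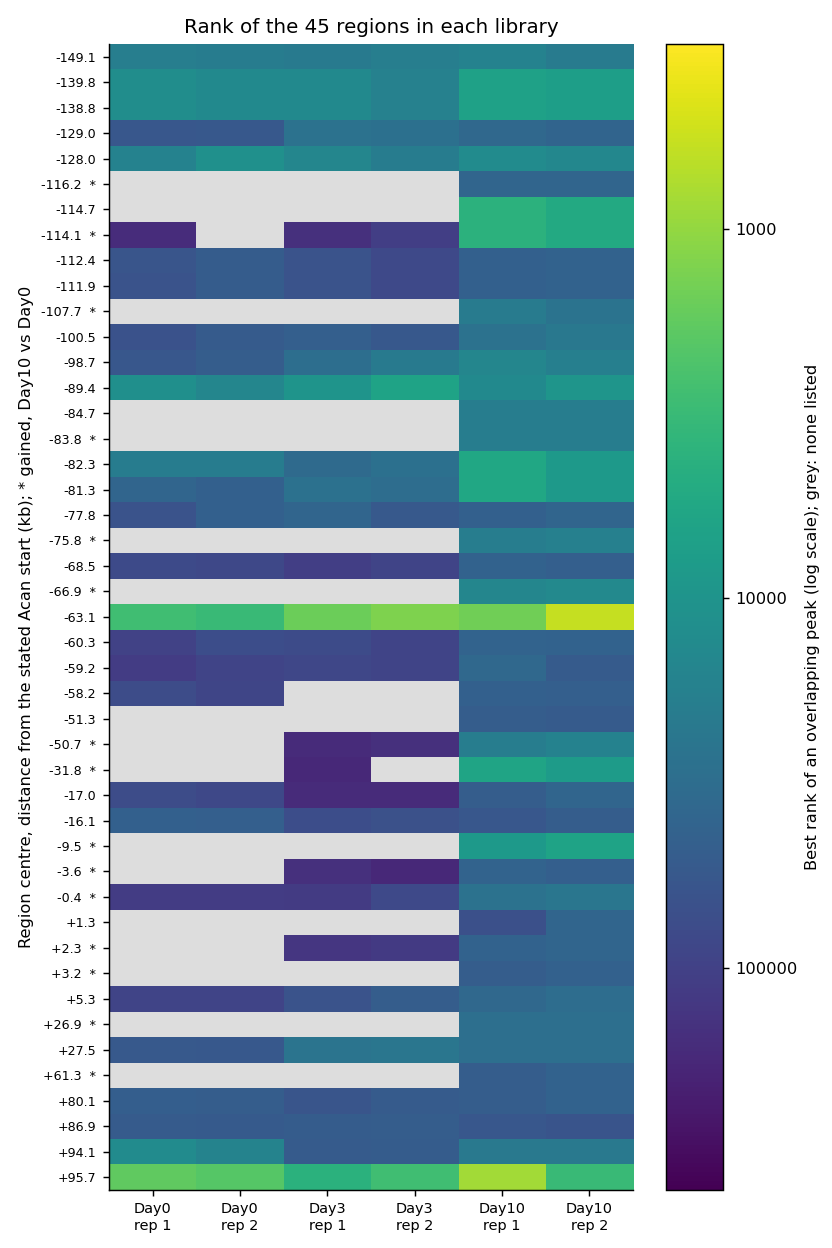
Each row is 1 of the 45 regions by its distance from the stated Acan start (kb), each column a library, and colour gives the best rank of an overlapping peak on a log scale, with grey where none is listed. The starred rows, gained on Day10 against Day0, are grey (none listed) or dark (poor rank) in the Day0 columns. In both Day10 columns they carry the colours of better ranks.

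The region at the start of Acan was strong only on Day10. Its window, chr7:78702612-78703112, is centred 0.4 kb before the stated start. It ranked 111977 and 112747 on Day0, 116565 and 82143 on Day3, and 26805 and 24112 on Day10. The authors' fold at its summit was 6.99 and 6.93, then 6.12 and 8.9, then 24.9 and 26.5. A weak peak was thus listed at the start in all 6 libraries, the Day0 and Day3 ranks overlapped, and both Day10 ranks were better than all others. It was gained against Day0 but not against Day3, since Day3 replicate 2 ranked better than 100000. The call against Day0 was also lost when only the 25000 strongest peaks counted, with the threshold on −log10 q, and with windows of 125 bases to either side.

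The region nearest upstream among the strongest gained ones lay 9.5 kb before the start, at chr7:78693448-78693948. No Day0 or Day3 library listed a peak there. At Day10 it ranked 8453 and 6258, with a fold of 35 and 37.6 and a pileup of 72 and 80 reads. It thus ranked better than the region at the start in both Day10 libraries. With windows of 125 bases to either side it was not called, since no summit of Day10 replicate 1 fell in the narrower window. A smaller gained region 3.6 kb before the start, chr7:78699393-78699893, was not listed on Day0, ranked 147142 and 174584 on Day3, and 40666 and 45402 on Day10.

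A second strong element stood alone 31.8 kb upstream, at chr7:78671176-78671676. It was absent on Day0 and, on Day3, was listed in replicate 1 only, at rank 175042. At Day10 it ranked 6154 and 7885 with a fold of 36.9 and 36.3. The step from 40 to 30 kb upstream held this summit and no other in either Day10 library. The region 50.7 kb upstream, chr7:78652266-78652766, was likewise absent on Day0, ranked 164470 and 147334 on Day3, and 19409 and 16820 on Day10.

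The strongest gained region by rank lay farther out, 114.1 kb before the start at chr7:78588895-78589395. It ranked 163013 in Day0 replicate 1 and was absent from replicate 2, ranked 147140 and 107027 on Day3, and reached 4105 and 5247 on Day10. Its pileup was 6 reads on Day0, 8 and 11 on Day3, and 80 and 82 on Day10. Another 5 gained regions, at 116.2, 107.7, 83.8, 75.8 and 66.9 kb upstream, had no peak in any Day0 or Day3 library. Of these, the one at 66.9 kb, chr7:78636089-78636589, was the strongest, at ranks 15137 and 13812, and the one at 116.2 kb the weakest, at 38961 and 38908. The gained elements were thus spread over more than 100 kb and did not form a single block.

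Inside the gene, 4 regions were gained, all of moderate rank. Those at 2.3 and 3.2 kb after the start, chr7:78705283-78705783 and chr7:78706132-78706632, ranked 42380 and 38911, and 48001 and 43636, on Day10. The first was listed on Day3, at ranks 130021 and 117011, and the second in no earlier library. A region 61.3 kb after the start, chr7:78764309-78764809, lay at the end of the gene and ranked 48002 and 41972 on Day10 alone. None of the regions in Acan had a summit among the 25000 strongest of either Day10 library.

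The fourth, 26.9 kb after the start at chr7:78729896-78730396, ranked 29194 and 29491 on Day10 and was not overlapped by any earlier peak. Its neighbour at 27.5 kb, chr7:78730484-78730984, had summits at ranks 54637 and 55389 on Day0 and 25871 and 24301 on Day3. The Day10 peak overlaps both windows with its summit in the first. This part of Acan thus held a peak before Day10, ranked better on Day3 than on Day0, and the call at 26.9 kb lies beside it. At 5.3 kb after the start, chr7:78708234-78708734 ranked 92621 and 93392 on Day0, 63616 and 48018 on Day3, and 35863 and 30678 on Day10, better on each later day in both replicates, although no comparison called it.

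Some elements were open throughout. The strongest upstream was 63.1 kb before the start, at chr7:78639922-78640422, ranked 2805 and 3156 on Day0, 1583 and 1258 on Day3, and 1478 and 591 on Day10. A region 89.4 kb upstream, chr7:78613586-78614086, ranked between 6342 and 14894 in all 6 libraries. Beyond the gene, the region at 95.7 kb, chr7:78798642-78799142, ranked 1817 and 2048 on Day0, 4130 and 2800 on Day3, and 855 and 3132 on Day10. Both sides of Acan thus carried strong open elements before the gene's own start was strong. Whether these elements act on Acan or on other genes was not tested.

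The regions lost by the summit rule, 1 against Day0 and 3 against Day3, were still overlapped by a strong Day10 peak with its summit elsewhere. The window 82.3 kb upstream, chr7:78620657-78621157, ranked 19635 and 19779 on Day0 and 33658 and 28381 on Day3, and had no summit on Day10. The window next to it, 81.3 kb upstream, ranked 38280 and 44874 on Day0 and 5603 and 8475 on Day10, and the Day10 peak overlaps both. The widest peak of the locus, with its summit 138.8 kb upstream and in Day10 replicate 2 at 139.8 kb, was 1877 and 1821 bases wide on Day0, 2290 and 2123 on Day3, and 2788 and 3172 on Day10. Peaks over 1000 bases in the locus numbered 2 and 2 on Day0, 3 and 3 on Day3, and 16 and 16 on Day10. No genome-wide count of such peaks is given here. The estimated relative depth was 1.96 in both Day10 libraries, and the part of depth in peak width was not tested.

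A few regions were weakest on Day3. The region 17.0 kb upstream, chr7:78686028-78686528, ranked 75833 and 83998 on Day0, 177303 and 164455 on Day3, and 48000 and 38910 on Day10. The region 58.2 kb upstream, chr7:78644741-78645241, ranked 75832 and 88476 on Day0, was not listed on Day3, and ranked 44164 and 45401 on Day10. Both were gained against Day3 by both rules and not against Day0. Downstream, the region at 94.1 kb, chr7:78797100-78797600, ranked 12674 and 16255 on Day0, 51477 and 49937 on Day3, and 22416 and 22149 on Day10. In each of these, the values of the 3 days did not overlap.

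No region was called in the stretch in which Hapln3 follows Acan. Weaker peaks outside any region did differ by day. The step from 70 to 80 kb held 4 and 3 summits on Day10 and 0 in each Day0 and Day3 library. The strongest of these, at 78.1 kb, ranked 121295 and 117614, with a fold of 8.64 and 8.83. The part of depth in these weak peaks was not tested. The region at 80.1 kb, chr7:78783032-78783532, ranked 47217 and 48138 on Day0, 60790 and 51972 on Day3, and 48003 and 41973 on Day10. The region at 86.9 kb, chr7:78789882-78790382, ranked between 48019 and 62087 in all 6 libraries. With the regions at 94.1 and 95.7 kb, none of the 4 was gained or lost in any of the 3 comparisons. Genome-wide, both rules called 10.8% gained and 7.98% lost at Day10 against Day0. At such shares the absence of calls among 4 regions is no departure from the background. Which of the 4 belongs to Hapln3 and which to Mfge8 was not analysed here.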

How the data were processed

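Each library has 1 deposited narrowPeak list, with positions, the authors' integer score, the authors' fold ratio over background, and −log10 p and q values as deposited. Per the submitters' processing notes, reads went through Trim Galore. Aligner and peak caller: not given in the sources used here. The notes name mm10, but scaffold names in the lists belong to GRCm39, so no coordinates were converted. Pileups were recovered as whole numbers (within 0.01) in 100.0% of peaks from fold = (pileup + 1) / (background + 1). Relative depth is background divided by the smallest width. Total read numbers were not used, so no interval is given.

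Peaks on chromosomes 1 to 19, X and Y were ranked by −log10 p, then fold, then position. Windows reached 250 bases to either side of the 50000 strongest summits, overlaps resolved for the better rank. The overlap rule takes any peak sharing 1 base. Python 3.11.15, numpy 2.4.6 and pandas 2.3.3 were used, and calls were tested on simulated data. No p-value was computed for calls from 2 against 2 libraries. Regions are named when called by both rules, when among the 3 best on a day, or when nearest the Acan start; others named were chosen after their values were seen. The members and lists were chosen with earlier results of these data known. Genes most like Acan, other pathway genes and cell type markers were not analysed here, as no annotation of that build was used.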

Additional observations from a re-analysis of the deposited data

How the results depend on the processing

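Genome-wide shares are given here only for the summit rule and for both rules. Counts under the other settings are therefore not set against the genome. The 15 regions gained at Day10 against Day0 numbered 13 to 22 under the other settings, except 7 when only the 25000 strongest peaks counted as held. That setting also gave 7 gained against Day3, 7 upstream and 0 in Acan, and 0 lost against Day3, since a summit must be stronger to count. Without a gap between ranks, 17 were gained upstream, and 3 were gained and 2 lost at Day3 against Day0. By the overlap rule, and by both rules, 0 were lost at Day10 against Day0, upstream included, and 0 against Day3. With the −log10 q threshold, 3 were lost at Day3 against Day0, 4 at Day10 against Day0, 3 of them upstream and 1 in Acan. Windows of 125 bases to either side gave 1 lost at Day3, and windows of 500 bases to either side 0 lost against Day0, 0 of them upstream, 1 lost against Day3 and 2 gained in Acan. Leaving out 1 library in turn gave 15 to 18 gained and 1 to 3 lost at Day10 against Day0, with 1 to 3 lost upstream, and 0 to 1 lost at Day3. The lost counts of 3 and 1 came without Day0 replicate 1, and 2 without Day10 replicate 1. The cause was not tested in these cases, but fewer libraries leave fewer conditions to meet. Of the 15 gained regions one by one, 8 lost the call with the 25000 strongest peaks. With windows of 125 bases to either side 2 lost it (those 9.5 and 0.4 kb upstream), and with the −log10 q threshold 1 (0.4 kb upstream). With windows of 500 bases to either side 13 kept the call. Those 3.2 and 26.9 kb after the start had no outcome at that setting. None reversed.

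Permuting days only within replicate number, a replicate block, kept the Day10 minus Day0 differences at 24.5 summits and 28002 bases. The exact permutation p values were 0.333 and 0.167, and 0.167 is the smallest that 6 arrangements allow. Same-numbered libraries did not deviate together, with correlations of 0.01, 0.01 and 0.0 over 58610 regions. This check cannot exclude a shared preparation by number that left no common deviation. Depth limits weak peaks: a region not listed can still be open below 5 reads.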
